A study of Saccharomyces cerevisiae with 180 samples.

Results

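Nucleosomes that carry trimethylated lysine 4 and acetylated lysine 18 of histone H3 at the same time were followed in budding yeast through 4 of the 180 libraries of a combinatorial immunoprecipitation series. In 2 of them K4me3 was precipitated first and K18ac second, and in the other two the antibodies were used in the opposite order. Each library was set against the Input library of its own set and first antibody. Input is taken to be what the first antibody bound, before any second one, although the labels leave its meaning unstated. The libraries were picked by their antibodies and strain, not by a measured value.

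All cells grew in YPD, a rich glucose medium, and were fixed with formaldehyde before micrococcal nuclease cut the chromatin into nucleosomes. Set 1 held wild-type H3 and the mutants H3K4R, H3K18R and H3K36R, in each of which arginine stands in for the named lysine. Set 2 held strains labelled bar1, set2 and eaf3, and the titles give the first of these as its wild type. Every strain and pair of antibodies was represented by 1 library, so no value has a replicate, and the intervals given cover counting error only. In the summed K4me3 and K18ac Inputs, SET2 had 9.29 reads per 1000000 in the strain labelled set2 and 189 in the strain labelled bar1, and EAF3 had 3.67 in the strain labelled eaf3 and 102 in the strain labelled bar1. BAR1 had 135 per 1000000 in the strain labelled bar1, close to the 134 and 130 of the strains labelled set2 and eaf3, while NAM7, an RNA helicase gene of nonsense-mediated decay, had 2 reads there (0.888 per 1000000, against 192 in wild-type H3). The reference strain of set 2 therefore goes against its label.

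K4me3 is written by Set1 in the COMPASS complex at the 5-prime ends of transcribed genes. K18 is acetylated by Gcn5, the catalytic subunit of the SAGA coactivator, which also acts on other lysines of the H3 tail. Sgf29, a SAGA subunit, binds K4me3 through its tandem Tudor domain. Precipitation of either mark alone shows that it lies in a region, whereas a second precipitation from the bound material asks whether the other mark sits on the same nucleosomes.

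The depth of the pair differed between libraries by more than an order of magnitude. K4me3 followed by K18ac gave 46653 reads in set 1 and 15742 in set 2, and K18ac followed by K4me3 gave 186077 and 777828. The matching Inputs held 758641, 585353, 1039775 and 1665651 reads. At the shallowest library 1 read is worth 63.5 reads per 1000000 (CPM), the median gene held 1 read over the first 1000 bp of its coding region, and 34.8% of genes held none. The K4me3-first libraries can therefore be read for sums over many nucleosomes and hardly for single genes. Reads in the 4 libraries covered 25596, 45966, 12702 and 64324 of 65032 nucleosomes in the order set 1 K4me3 first, set 1 K18ac first, set 2 K4me3 first and set 2 K18ac first. If reads fell independently with the Input's shares, 26806, 56883, 13164 and 64819 would be covered. The shortfall cannot be ranked between libraries, since it depends on their depth.

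K18ac was recovered more from K4me3-bound material than from material of any other first antibody except K18ac itself. In set 1, K4me3-first material gave 6.15 K18ac reads per 100 Input reads (95% interval 6.09 to 6.21), against 2.19 from H3-first, 2.49 from K36me3-first and 2.09 from K79me3-first material. In set 2 the value was 2.69 (2.65 to 2.73), against 1.91 from K36me3-first and 1.49 from K79me3-first material, the last of which rested on 150 reads. The pair was the highest of the compared first marks in both sets, by 2.47-fold or more in set 1 and 1.41-fold or more in set 2.

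In the opposite order the gap was smaller. In set 1, K18ac-first material gave 17.9 K4me3 reads per 100 Input reads, against 6.59 from H3-first, 15.3 from K36me3-first and 9.75 from K79me3-first material. In set 2 it gave 46.7 (46.6 to 46.8), against 48.7 from K36me3-first and 42.6 from K79me3-first material. K18ac-first material was thus highest in set 1 and lay between the other first marks in set 2. The same-mark libraries set the scale of a second step: K18ac from K18ac gave 94.9 per 100 Input reads in set 1 but 9.92 in set 2, and K4me3 from K4me3 gave 74.4 and 152. Levels of recovery are therefore compared only within a set and a second antibody. How much of each library went into the sequenced pool is not given in the sources used here, so recovery and pooling cannot be told apart in a total, whereas positions and genes within a library do not depend on it.

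Across both orders and sets, recovery of the pair exceeded that of the same second antibody after K36me3 or K79me3 by 0.67 ± 0.58 on the log2 scale (SD over 4 strata of set and second antibody). The strata gave 1.43 and 0.67 for K18ac second and 0.55 and 0.04 for K4me3 second, and the pair was highest in 3 of 4. A two-sided exact permutation test within strata, over 81 assignments, gave p = 0.0247 (adjusted 0.0247 over the 2 tests run). Without libraries under 10000 reads the test did not pass (0.64, exact permutation test with adjusted p = 0.111). That filter leaves no comparison for K18ac second in set 2, and the assignments left are too few for a pass. The spread it uses is that between antibodies, with no separate cultures behind it.

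Strains that lack one of the modified residues show how much of each library depends on it. Without lysine 18, K4me3-first material gave 0.196 K18ac reads per 100 Input reads (1029 reads), 31.4-fold fewer than in wild-type H3. Without lysine 4, K18ac-first material gave 0.982 K4me3 reads per 100 Input reads (10929 reads), 18.2-fold fewer. Replacing lysine 36, which is in neither mark, left the values at 6.48 and 17.2, close to 6.15 and 17.9 of wild-type H3. Loss of the second residue thus removed most of the second-step reads in either order.

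Loss of the residue of the first mark lowered the first step, and recovery in the second step changed as well. The K4me3 Input of H3K4R held 3639 reads, 208-fold fewer than in wild-type H3, and the K18ac Input of H3K18R held 37544, 27.7-fold fewer. The few reads left passed the second step at 18.6 K18ac reads per 100 Input reads in H3K4R (678 reads), where wild-type H3 gave 6.15. In H3K18R they gave 5.91 K4me3 reads (2217 reads), 3.03-fold below the 17.9 of wild-type H3. The same H3K4R material gave 17.8 with K79me3, 19.1 with K36me3, 23.9 with H3 and 24.1 with K4me3 as second antibody. The 18.6 was therefore not particular to K18ac. These ratios rest on small first-step libraries, and the numbers of pair reads were 68.8-fold and 83.9-fold below wild-type H3. In set 2 the strains labelled set2 and eaf3 gave 4.63 and 3.27 K18ac reads per 100 K4me3 Input reads, above the 2.69 of the strain labelled bar1. They gave 58.6 and 52.4 K4me3 reads per 100 K18ac Input reads, above its 46.7.

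Along genes the pair sat at the 5-prime end, and both orders of precipitation gave nearly the same profile although they started from different material. In set 1, K4me3 followed by K18ac was densest from 100 to 200 bp after the start codon, at 36.1 CPM per nucleosome, and K18ac followed by K4me3 was densest in the same bin, at 35.6. By 1900 to 2000 bp the values were 3.36 and 4.07, which is 10.8-fold and 8.74-fold lower. The K18ac Input fell only 2.10-fold over that distance, from 22.5 to 10.7, and the K4me3 Input 7.88-fold, from 34.0 to 4.31.

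**Figure D1:**
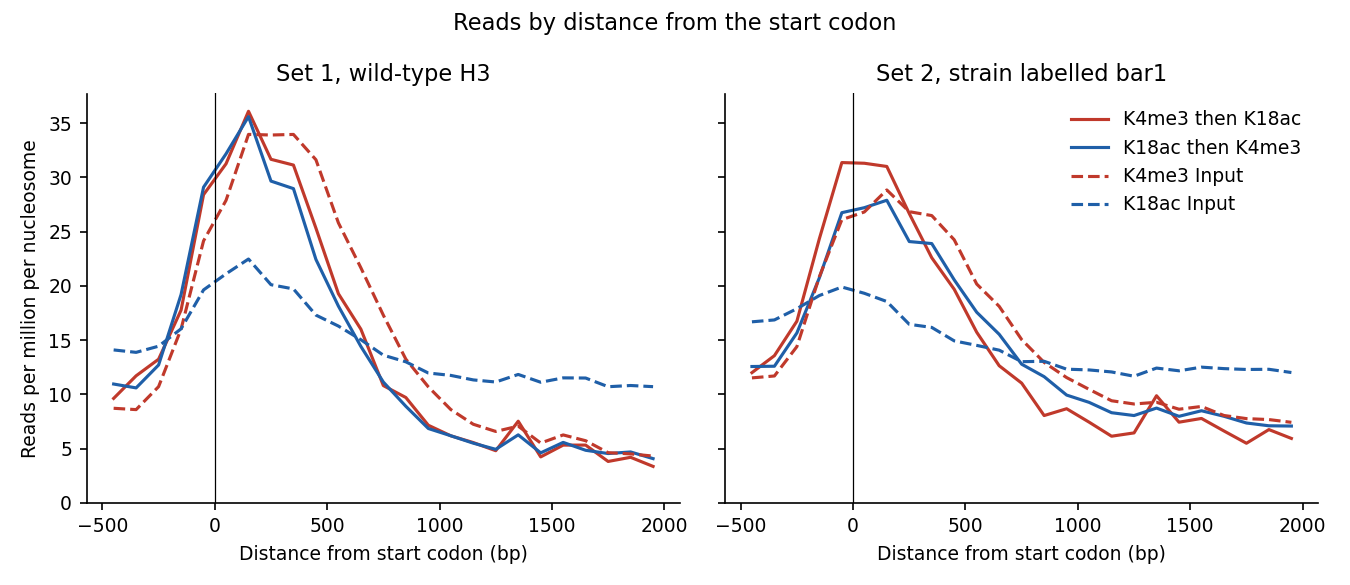
Reads per 1000000 per nucleosome (y) by distance of the nucleosome centre from the start codon in 100 bp bins (x), for set 1 and set 2. Solid lines are the pair in either order and dashed lines the Inputs. In set 1 the solid lines both reach about the same height (36.1 and 35.6) and fall together, while the dashed lines lie far apart downstream.

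In set 2 the profile was flatter. K18ac followed by K4me3 was again densest from 100 to 200 bp, at 27.9 CPM per nucleosome, and fell 3.94-fold by 1900 to 2000 bp, where its Input fell 1.66-fold from its own highest bin. K4me3 followed by K18ac was densest in the last 100 bp before the start codon, at 31.4, and fell 5.28-fold, where its Input fell 3.89-fold. Each of the 4 libraries of the pair was thus steeper than its own Input. From 200 to 100 bp upstream the pair also exceeded its Input in every library, for example 19.2 against 16.0 CPM for K18ac followed by K4me3 in set 1 and 24.3 against 20.8 for K4me3 followed by K18ac in set 2.

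The same shift appears in zones of the 2248 genes with at least 1500 bp of coding length. In set 1 the 5-prime zone, under 500 bp, held 55.0% of zone reads of K4me3 followed by K18ac (95% Wilson interval 54.2 to 55.7), where its Input held 49.4%. The late zone, from 1000 bp, held 22.5% (21.9 to 23.1), where its Input held 23.2%. For K18ac followed by K4me3 the 5-prime zone held 54.0% (53.7 to 54.4) and its Input 30.1%, and the late zone 24.3% (23.9 to 24.6) and its Input 48.6%. The orders therefore met at nearly equal shares, which for the K18ac-first material is a far larger move than for the K4me3-first material.

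In set 2 the 5-prime zone held 46.2% of zone reads of K4me3 followed by K18ac (45.0 to 47.5), where its Input held 40.4%, and 40.9% of K18ac followed by K4me3 (40.8 to 41.1), where its Input held 25.5%. The late zone held 33.7% and 36.5%, where the Inputs held 35.6% and 54.1%. Expressed as log2 of late over 5-prime reads, the orders differed by 0.13 in set 1 and 0.29 in set 2, whereas their Inputs differed by 1.78 and 1.27. In H3K18R, which lacks lysine 18, the orders differed by 0.19 and their Inputs by 1.99, on 445 and 884 zone reads of the pair. The orders thus met there as well, so their meeting does not by itself show both marks on a nucleosome. The pair minus its own Input was -0.20 (-0.25 to -0.14) with K4me3 first and -1.84 (-1.87 to -1.82) with K18ac first in set 1. In set 2 it was -0.27 (-0.35 to -0.19) and -1.25 (-1.27 to -1.24).

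The position after a second step differed by second antibody. In set 1, K4me3-first material had log2 late over 5-prime reads of -1.29 after K18ac, 0.02 after K36me3, -0.70 after K79me3, -0.45 after H3 and -1.09 in Input. For K18ac-first material the values were -1.16 after K4me3, 1.51 after K36me3, 0.86 after K79me3, 0.84 after H3 and 0.69 in Input. The pair was the lowest of these in either order. In set 2 the pair stood at -0.46 and -0.17, with K36me3 at 0.29 and 1.79 and K79me3 at 0.04 and 1.35.

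The move toward the start of genes with K4me3 as second antibody was not particular to K18ac-first material. In set 1, library minus Input was -2.30 from H3-first, -2.60 from K36me3-first and -2.66 from K79me3-first material, each a larger move than the -1.84 from K18ac-first material. In set 2 it was -2.07 from K36me3-first and -2.32 from K79me3-first material, against -1.25. The K79me3-first library of set 2 (-0.43, on 2086 zone reads) even ended nearer the start of genes than the pair (-0.17). With K18ac as second antibody the move was also smaller from K4me3-first material than from the others: -0.20 against -0.66 from H3-first, -0.83 from K36me3-first and -0.71 from K79me3-first material in set 1, and -0.27 against -0.39 from K36me3-first and -0.56 from K79me3-first material (74 zone reads) in set 2. K4me3-first and K18ac-first Inputs lay nearer the start of genes than those of the other first antibodies to begin with.

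**Figure D2:**
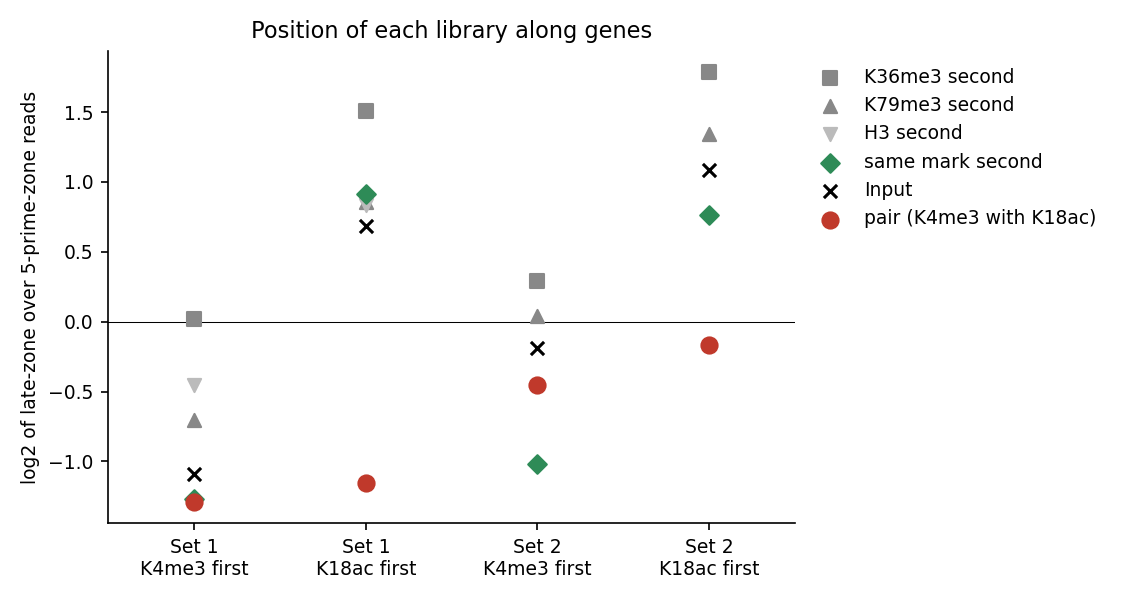
Log2 ratio of late-zone to 5-prime-zone reads (y) for each set and first antibody (x). Each symbol is 1 library, and the pair is the filled circle. The pair lies below the K36me3, K79me3 and Input libraries in each of the 4 columns, and in set 2 after K4me3 the same-mark library (-1.02) lies lower still.

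The position shift of the pair against K36me3 and K79me3 as second marks was -1.41 ± 0.78 on the log2 scale (SD over 4 strata of set and first antibody), with the pair lowest in 4 of 4. The strata gave -0.94, -2.34, -0.62 and -1.73. The two-sided exact permutation test within strata gave p = 0.0123, the smallest that 81 assignments can give, and an adjusted p of 0.0247. K36me3 is a mark of gene bodies, and the shift is measured in part against it. As second antibodies, K4me3 and K18ac also moved the other first-step materials of the wild types toward the start of genes, as given above. The p thus concerns differences between second antibodies, with no separate cultures behind it, and shows nothing particular to the pair. Against the same-mark libraries the shift was -0.61 (exact permutation test with adjusted p = 0.375). With only the same-mark library to exchange in each stratum, that test could not pass whatever the values, so it decides nothing.

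Counted by nucleosome, recovery of the second mark fell from the start of genes inward in both orders, but over different distances. K18ac-first material of set 1 gave 27.8 K4me3 reads per 100 Input reads on the first nucleosome after the start codon, 11.5 on the sixth and 6.88 on the twelfth, a 4.04-fold fall. In set 2 the values were 67.3, 39.6 and 26.9, a 2.51-fold fall. K4me3-first material of set 1 gave 6.78 K18ac reads per 100 Input reads on the first nucleosome (6.55 to 7.02), 4.23 on the sixth (3.95 to 4.53) and 5.21 on the twelfth (4.55 to 5.94). In set 2 it gave 3.25 (3.06 to 3.44), 1.90 (1.69 to 2.13) and 2.14 (1.79 to 2.54). From K4me3-bound nucleosomes, recovery of K18ac was therefore highest at the first nucleosome and lowest at the sixth in set 1 and the fifth in set 2.

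H3 as second antibody, which does not depend on a mark, went the other way along genes. From K4me3-first material of set 1 it recovered 3.36 reads per 100 Input reads on the first nucleosome, 4.50 on the sixth and 5.47 on the twelfth. From K18ac-first material it recovered 4.96, 5.57 and 5.56. The same-mark steps of set 1 differed in direction. K4me3 from K4me3-first material fell from 77.4 on the first nucleosome to 63.2 on the twelfth, 1.22-fold, so some fall with this second antibody occurred without K18ac first. K18ac from K18ac-first material rose from 89.5 to 100. The direction along genes can be compared between these second antibodies, and their heights cannot.

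**Figure D3:**
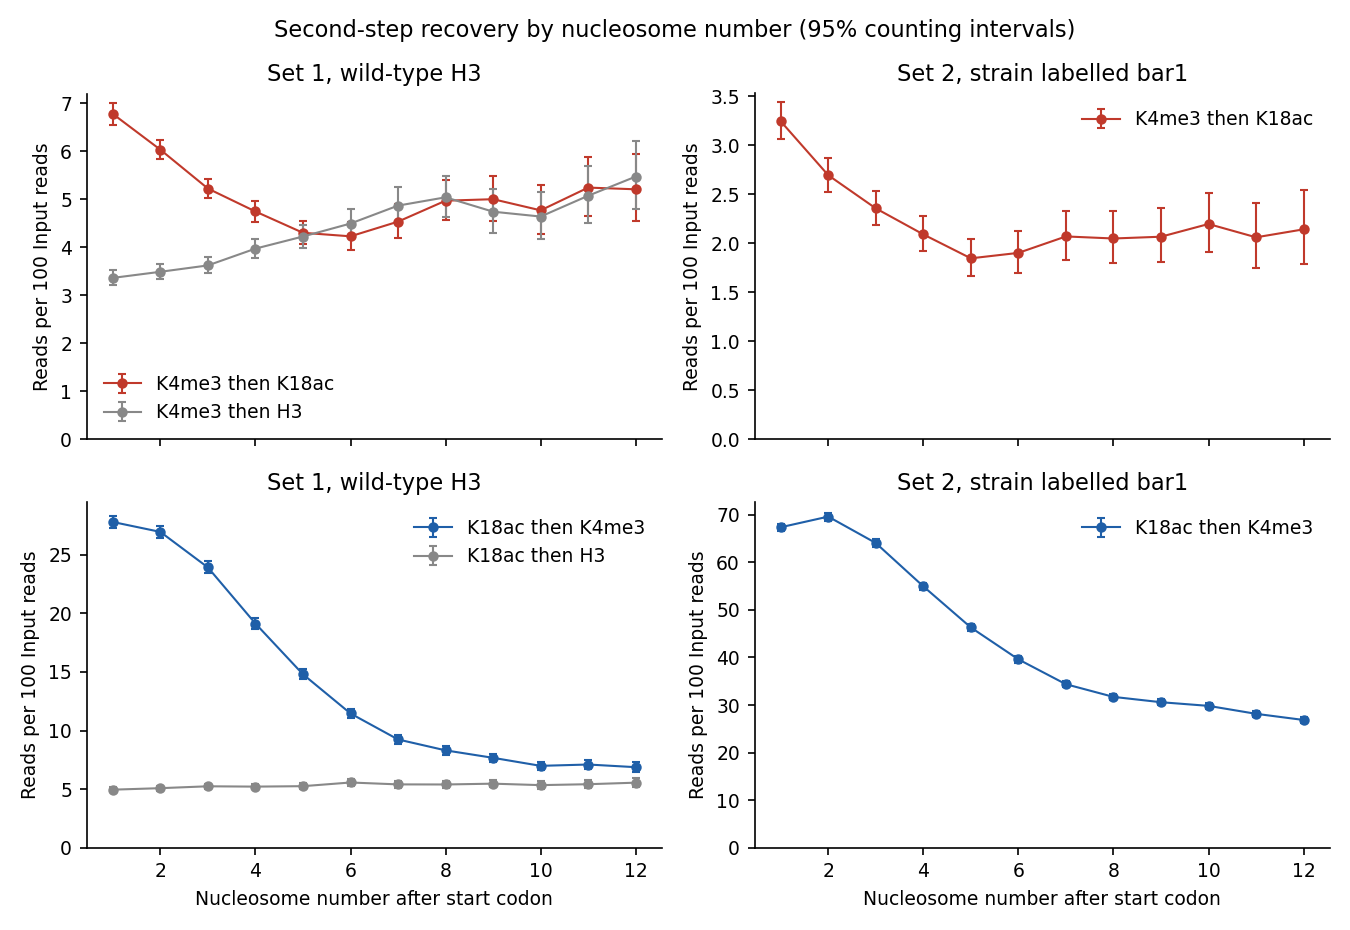
Second-step reads per 100 Input reads (y) on nucleosomes 1 to 12 after the start codon (x), with 95% counting intervals, for both orders and sets. Grey points are the H3 second step of set 1, to be read for their course along genes and not their height. In set 1 the K4me3 then K18ac values fall from 6.78 to 4.23 at the sixth nucleosome, and the K18ac then K4me3 values fall from 27.8 to 6.88 at the twelfth, while the H3 values end higher than they start.

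The position of the pair followed the strain in which it was measured. In H3K4R, K18ac followed by K4me3 had log2 late over 5-prime reads of 1.03, close to 1.13 of its Input, so the reads left without lysine 4 lay along genes much as the first-step material did. In H3K18R, K4me3 followed by K18ac stood at -0.81 beside -0.71 in Input (445 zone reads). In the opposite order H3K18R stood at -0.62 beside 1.29 in Input, a difference of -1.91 (-2.14 to -1.68) that is close to the -1.84 of wild-type H3 although lysine 18 is absent. In the strains labelled set2 and eaf3 the orders stood at 1.19 and 1.08, and at 1.13 and 0.69, farther into genes than in the strain labelled bar1 (-0.46 and -0.17). Their Inputs lay farther in as well, at 1.00 and 1.87 in set2 and 1.03 and 1.78 in eaf3, against -0.19 and 1.09 in bar1. Those strains carry deletions of the K36 methyltransferase gene and of a subunit gene of the Rpd3S deacetylase complex, which removes acetyl groups in transcribed regions. In H3K36R the orders stood at -0.32 and -0.04, above -1.29 and -1.16 of wild-type H3, and its Inputs at -0.39 and 1.47, above -1.09 and 0.69.

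Outside coding regions the pair was at or above its Input just upstream of genes, and elsewhere the orders parted. Nucleosomes in no gene and within 500 bp before a start codon had a log2 ratio of pair to Input of 0.25 (0.21 to 0.29) and 0.13 (0.11 to 0.15) in set 1, and of 0.22 (0.15 to 0.28) and -0.00 (-0.01 to 0.01) in set 2. Intergenic nucleosomes with no start codon that near had 0.05 and -0.78 in set 1 and 0.04 and -0.65 in set 2. Within 20 kb of a chromosome end, with nucleosomes inside genes included, the values were 0.12 and -0.68, and 0.57 and -0.56. K18ac nucleosomes far from gene starts and near chromosome ends thus yielded less K4me3 than average, while the few K4me3 nucleosomes there yielded K18ac at or above the average.

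Recovery rose with the level of the other mark. Genes were divided into 5 groups of like size by their K18ac level in wild-type H3, the log2 ratio of the K18ac Input to the H3 Input, which does not enter the K4me3-first values. K18ac recovery from K4me3-first material rose from 4.76 reads per 100 Input reads in the lowest group (4.62 to 4.90) to 7.24 in the highest (7.08 to 7.42) in set 1, and from 2.15 (2.04 to 2.27) to 3.25 (3.12 to 3.39) in set 2, 1.52-fold and 1.51-fold. Divided by K4me3 level instead, K4me3 recovery from K18ac-first material rose from 13.3 to 27.9 in set 1 and from 39.4 to 71.5 in set 2, 2.10-fold and 1.82-fold. In both sets each step from a group to the next was upward, although with K4me3 first in set 2 the intervals of the middle groups overlapped.

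Gene by gene, the pair was compared with its Input over the first 1000 bp in 5492 genes with a mean of at least 20 CPM over the 8 libraries, and a gene was called at a 1.5-fold difference after 5 CPM was added to both. Genes shorter than 1000 bp were counted over their coding length alone, near the start codon, where recovery was higher than farther in. Neither the calls nor the list sums were matched for gene length. In set 1, 19.6% of genes were called higher for K4me3 followed by K18ac and 29.4% for K18ac followed by K4me3, and 341 genes (6.21%) were called higher in both orders. In set 2, 26.1% and 28.4% were called higher, and 406 (7.39%) in both. Only 61 genes (1.11%) were higher in all 4 comparisons, and 134 (2.44%) were lower in all 4. The lower calls made up 33.2% and 14.7% of genes in set 1, with 7.16% lower in both orders, and 45.6% and 7.79% in set 2, with 5.35% lower in both. The 341 shared higher genes were 31.6% of those called in the first order of set 1 and 21.1% of those called in the second. Of all genes, 29.4% and 19.6% were called in the respective other order. In set 2 the 406 were 28.4% and 26.0%, beside 28.4% and 26.1% of all genes. A higher call in either order thus told little about the other. Lower calls were shared more often, at 21.6% and 48.7% in set 1, against 14.7% and 33.2% of all genes. In set 2 they were shared at 11.7% and 68.7%, against 7.79% and 45.6%.

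How many genes were called depended on the scaling. Summed over all tested genes, the log2 ratio of pair to Input was -0.04 and 0.35 in set 1 and -0.03 and 0.34 in set 2, and gene values are best read against these. Of the calls for K18ac followed by K4me3 in set 1, 66.7% were higher with total reads, 43.5% with edgeR TMM factors, 26.2% with DESeq2 size factors and 38.4% after centring on the median gene. In set 2 these shares were 78.5%, 32.5%, 16.0% and 27.5%. For K4me3 followed by K18ac they were 37.2%, 37.0%, 40.8% and 46.0% in set 1 and 36.4%, 24.5%, 27.1% and 46.2% in set 2. With TMM factors 4 genes were higher in all 4 comparisons, and with DESeq2 size factors 3.

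With the further demand that each gene's own 95% counting interval lie above its Input, or below it for lower calls, 8 genes were higher in all 4 comparisons and 0 were lower. With K4me3 first in set 2 only 9 genes were called lower under this demand, against 241 higher. At that depth 0 reads rarely put an interval below Input, so the 0 says nothing about the genes. The 8 are named next. These higher genes were EAF6, EFT1, EFT2, MRP13, NPL3, RPS2, RTG1 and STE20, a list put together after the values were seen. EAF6 encodes a subunit of histone acetyltransferase complexes, EFT1 and EFT2 encode the same translation elongation factor, MRP13 a mitochondrial ribosomal protein, NPL3 an mRNA-binding protein and STE20 a kinase of mating and filamentous growth. EFT1 and EFT2 are near-identical copies whose reads could be split between them, so their values are uncertain.

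RTG1, a transcription factor gene of the retrograde response from mitochondria to nucleus (YOL067C, chromosome XV, 201985 to 202518, sacCer3), was among the 10 genes with the highest minimum ratio and among the 5 with the highest level of the pair per kb of coding window. Its first 1000 bp held 11, 44, 5 and 125 reads in the libraries in the order set 1 K4me3 first, set 1 K18ac first, set 2 K4me3 first and set 2 K18ac first, against 66, 112, 52 and 155 in the Inputs. In CPM these were 236, 236, 318 and 161 against 87.0, 108, 88.8 and 93.1. Every library of the pair thus exceeded its Input, by log2 ratios of 1.39, 1.10, 1.78 and 0.76, although 5 reads carry the third.

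STE20 (YHL007C, chromosome VIII, 95118 to 97937) held 472, 344, 635 and 210 CPM in the libraries of the pair, against 275, 176, 220 and 130 in the Inputs. RPS2, a protein of the small ribosomal subunit (YGL123W, chromosome VII), held 364, 360, 445 and 130 CPM against 178, 131, 162 and 79.8. NPL3 (YDR432W, chromosome IV) had 26, 65, 9 and 81 reads and log2 ratios of 0.77, 1.18, 1.40 and 0.63. In all of them the K18ac-first library of set 2, the deepest, gave the smallest log2 ratio.

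By the rule on the minimum ratio, the genes with the highest pair over Input in all comparisons were RPS8B, LSM1, FCF2, RPS26A, HNM1, CAF20, TMA19, RTG1, POR1 and ASP3-1. All but HNM1 and ASP3-1 are 360 to 852 bp long, shorter than the 1000 bp window, which favours them in this ranking. RPS8B and RPS26A encode proteins of the small ribosomal subunit, LSM1 a subunit of the decapping activator complex, FCF2 a factor of ribosome assembly, HNM1 the choline transporter, CAF20 a repressor that binds the cap-binding protein, TMA19 a protein associated with ribosomes, and POR1 the porin of the mitochondrial outer membrane. LSM1 (YJL124C, chromosome X, 187126 to 187644) held 171, 215, 191 and 117 CPM against 77.8, 83.7, 90.5 and 61.2 in the Inputs. RPS8B (YER102W, chromosome V, 363100 to 363702) held 322, 204, 191 and 116 CPM against 159, 101, 101 and 55.2. In set 2 with K4me3 first each of these values rests on 3 reads. HNM1 (YGL077C, chromosome VII, 362225 to 363916) held 493, 269, 381 and 172 CPM against 243, 156, 210 and 94.3, on 23, 50, 6 and 134 reads. ASP3-1 encodes an asparaginase present in near-identical copies, and RPS8B and RPS26A have close paralogs, so their reads may be split between copies.

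Per kb of coding window, the genes with the highest level in the lowest of the 4 libraries were RTG1, NOP10, TOM5, IGO2 and EGD2, which are short genes. NOP10, a protein of the pseudouridylation complexes, held 484, 607, 718 and 370 CPM per kb, and RTG1 held 442, 443, 595 and 301. IGO2 (YHR132W-A), a regulator of entry into quiescence, held 595, 312, 321 and 334 CPM per kb. EGD2 (YHR193C), a subunit of the nascent polypeptide-associated complex, held 490, 307, 726 and 345. TOM5 (YPR133W-A), a subunit of the mitochondrial import channel, held 981, 421, 415 and 353 CPM per kb, and its log2 ratios to Input were 1.39, 0.06, 0.38 and -0.17. A high level of the pair was therefore not always an excess over Input.

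The genes at the other end held few reads of the pair. IME2, SPR28 and LDS2, AAD10, PDR18, YMR206W, DAK2, PHO89, IMA2 and THI11 held 0 reads in both K4me3-first libraries, where their Inputs held 8 to 26 reads. A floor of 3 reads is 64.3 CPM in set 1 and 191 in set 2, above all of those Inputs, so no fold can be given for that order. The K18ac-first libraries held 0 to 7 reads in set 1, against 48 to 121 in Input, and 5 to 68 in set 2, against 102 to 393. AAD10 (YJR155W, chromosome X, 727405 to 728271), an aryl-alcohol dehydrogenase family gene, held 0 reads against 71 in set 1 with K18ac first, which is at least 4.24-fold lower, and 6.43 against 93.7 CPM in set 2.

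IME2 (YJL106W, chromosome X, 221390 to 223327), a kinase gene that starts meiosis, held 10.7 CPM against 69.2 in set 1 with K18ac first, and its log2 ratio there was -2.24 in set 1 and -1.90 in set 2. SPR28, a septin of sporulation, and LDS2, a protein of the spore wall, held 26.9 against 90.4 and 10.7 against 58.7 CPM in set 1, and 19.3 against 82.8 and 20.6 against 61.2 in set 2. PHO89, a phosphate transporter gene, held 21.5 against 70.2 and 19.3 against 76.8. These genes had K18ac reads in the first step and gave few of them to the K4me3 antibody. THI11 belongs to a family of near-identical thiamine synthesis genes and IMA2 to one of isomaltases, so their reads are uncertain. In the deepest library their log2 ratios were -1.38 and -1.44.

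Ribosomal protein genes held more of the pair than their Inputs in either order of both sets. Summed over 137 of 138 genes that passed the filter, the log2 ratio of pair to Input was 0.73 (0.65 to 0.81) and 0.89 (0.85 to 0.93) in set 1, and 0.61 (0.47 to 0.75) and 0.49 (0.46 to 0.52) in set 2, with K4me3 first named first. In set 1, 56 of the 137 (40.9%) were called higher in both orders where 6.21% of all genes were, and in set 2, 19 (13.9%) where 7.39% were. In all 4 comparisons 8 (5.84%) were called, against 1.11%, and 0 were lower. RPL42A (YNL162W, chromosome XIV, 331322 to 332154), of the large subunit, held 557, 376, 635 and 207 CPM against 129, 174, 152 and 144. RPS0A (YGR214W) held 279, 457, 572 and 215 against 208, 196, 265 and 145, and RPL21A (YBR191W) 429, 263, 508 and 211 against 142, 188, 205 and 158. RPL42A and RPL21A, at 833 and 871 bp, are shorter than the 1000 bp window, and the list was not compared with other genes of like length. As for RPS8B and RPS26A, reads of members with close paralogs may be split between copies, which makes single-gene values and counts of calls less certain.

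**Figure D4:**
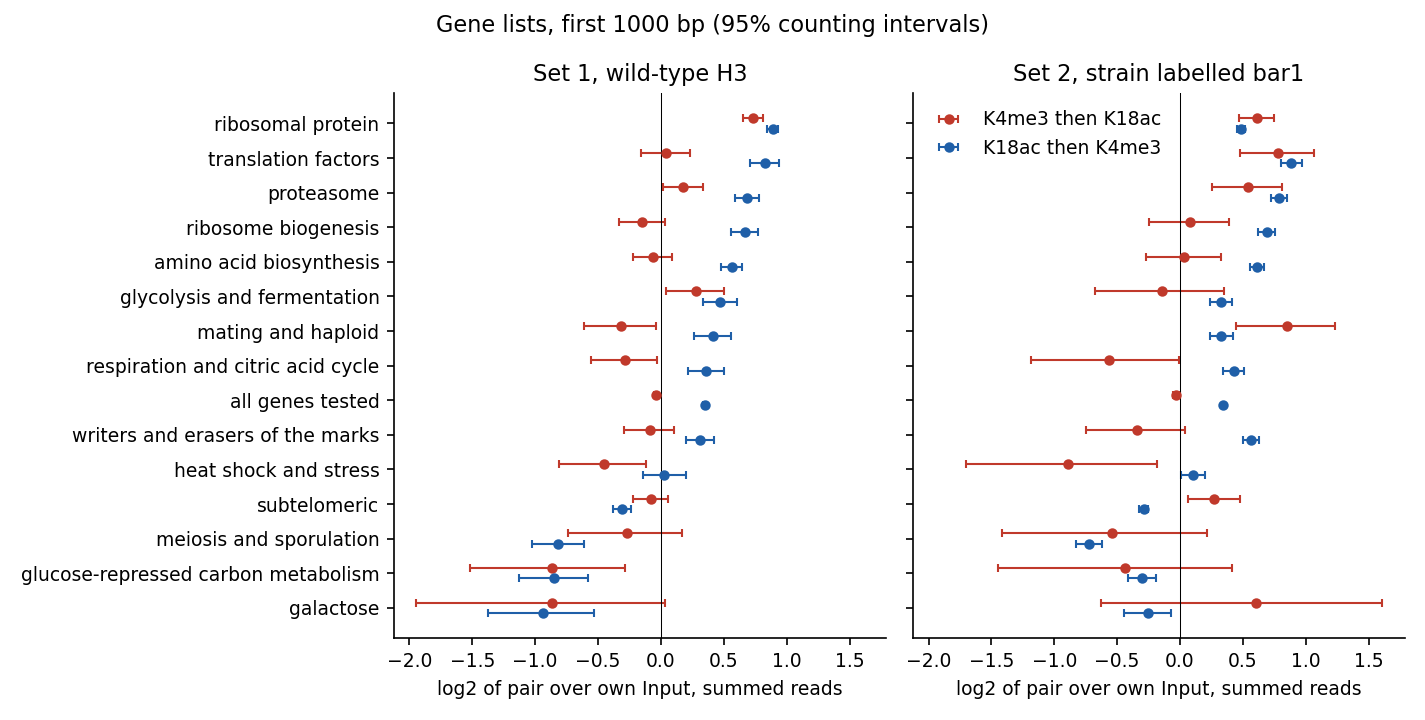
Log2 ratio of pair to own Input (x, reads summed over the first 1000 bp of each list, 95% counting intervals) for the gene lists (y), K4me3 first in red and K18ac first in blue. Ribosomal protein genes lie between 0.49 and 0.89 in all 4 comparisons, while all tested genes lie near 0 with K4me3 first and near 0.35 with K18ac first.

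The excess at ribosomal protein genes was not limited to the pair. K36me3 as second antibody gave 0.68 after K4me3 and 0.68 after K18ac in set 1, and 0.69 and 0.27 in set 2. H3 as second antibody gave -0.36 and -0.39 in set 1, K79me3 gave -0.27 and -0.22 in set 1 and -0.21 and -0.35 in set 2, and the same mark gave 0.07 and -0.14 in set 1 and 0.24 and 0.33 in set 2. The controls differed by order. In H3K4R, K18ac followed by K4me3 gave -0.03 (-0.23 to 0.17) at these genes, on 210 reads. In H3K18R, K4me3 followed by K18ac gave 0.83 (0.29 to 1.32), on 33 reads, so the reads that remain without lysine 18 had the excess as well.

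**Figure D5:**
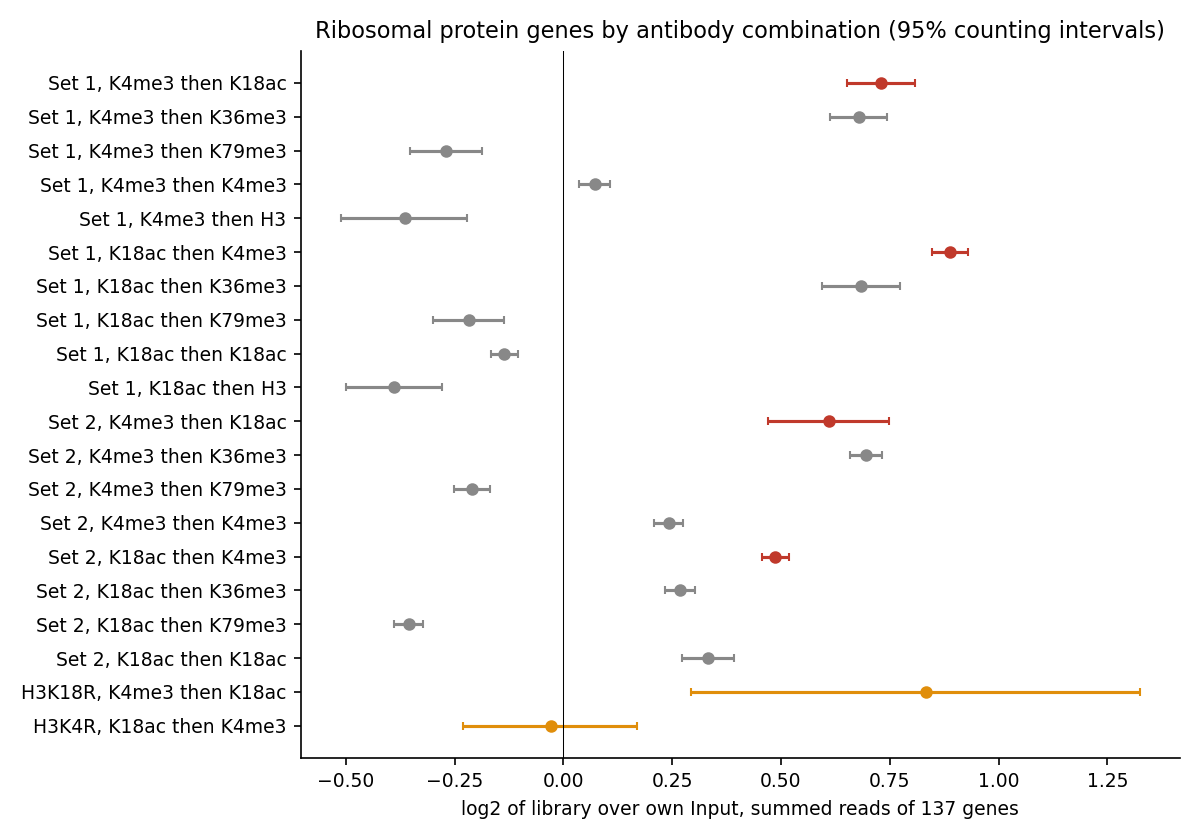
Log2 ratio of each library to its own Input (x, summed reads of 137 ribosomal protein genes, 95% counting intervals) by set or strain and antibodies (y). Red points are the pair in the wild types, orange points the strains lacking the residue of the second mark and grey points other second steps. The pair and the K36me3 second steps lie above 0, and the H3 and K79me3 second steps below.

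Translation factor, proteasome, ribosome biogenesis and amino acid biosynthesis genes lay above all genes when K18ac came first. With K4me3 first, translation factor genes also did so in set 2, and proteasome genes in both sets (0.01 to 0.33 in set 1). Translation factor genes (20) had summed log2 ratios of 0.04 and 0.83 in set 1 and 0.78 and 0.89 in set 2, and 3 of them (15.0%) were called higher in all 4, against 1.11% of all genes. Among these 3 are EFT1 and EFT2, near-identical copies whose reads could be split, so they do not count as separate genes. Proteasome genes (31) had 0.18 and 0.68, and 0.54 and 0.79, with 2 (6.45%) called in all 4. Ribosome biogenesis genes (30) had -0.15 and 0.66, and 0.08 and 0.69, with 0 called. Amino acid biosynthesis genes (40) had -0.06 and 0.56, and 0.03 and 0.61, with 0 called. All tested genes stood at -0.04 and 0.35, and -0.03 and 0.34, so with K18ac first each of these groups lay above them in both sets. K36me3 as second antibody after K18ac gave values above those of all genes (-0.02 and -0.05) too: 0.85 and 0.73 for translation factors, 0.72 and 0.43 for proteasome, 0.54 and 0.59 for ribosome biogenesis and 0.37 and 0.33 for amino acid genes. The K4me3-first intervals of the ribosome biogenesis and amino acid groups included the value of all genes in both sets. SUP35 (YDR172W), the translation termination factor gene, held 236, 247, 762 and 161 CPM against 297, 121, 238 and 76.8, so its first library alone lay below Input. RPN3 (YER021W), of the proteasome lid, held 386, 376, 445 and 193 CPM against 322, 122, 214 and 113.

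Glycolysis and fermentation genes (18) had 0.28 and 0.47, and -0.14 and 0.33, near the values of all genes with K18ac first. PGI1 (YBR196C), phosphoglucose isomerase, was the member called higher in all 4, at 514, 333, 445 and 185 CPM against 331, 176, 243 and 84.7, and HXK1, a hexokinase gene repressed by glucose, was lower in all 4. Respiration and citric acid cycle genes (20) had -0.29 and 0.36, and -0.56 and 0.43. Mating and haploid genes (18) had -0.32 and 0.41, and 0.85 and 0.33, with STE20 called in all 4. Genes encoding writers and erasers of the marks (32) had -0.09 and 0.31, and -0.34 and 0.56, and 0 were called in all 4 in either direction. Of all genes, 1.11% were higher and 2.44% lower in all 4, so counts of 0 or 1 in lists of this size say little about their members.

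Groups repressed in rich glucose medium were lower with K18ac first, and for meiosis and glucose-repressed genes the same held with K36me3 as second antibody. Glucose-repressed carbon metabolism genes (16) had summed log2 ratios of -0.87 (-1.52 to -0.28) and -0.85 (-1.13 to -0.58) in set 1, and -0.44 (-1.45 to 0.42) and -0.30 (-0.41 to -0.19) in set 2. Of them 3 were lower in all 4 comparisons (18.8%, against 2.44% of all genes): ACS1, an acetyl-CoA synthetase gene, ADR1, a transcription factor gene of ethanol use, and HXK1. Meiosis and sporulation genes (28) had -0.27 (-0.74 to 0.17) and -0.82 (-1.03 to -0.61), and -0.54 (-1.42 to 0.22) and -0.72 (-0.83 to -0.62), and 5 (17.9%) were lower in all 4. Galactose genes (6) had -0.87 and -0.94 in set 1 and 0.60 and -0.26 in set 2, on 10, 53, 8 and 326 reads. The 5 meiosis genes were ZIP1, SPO11, REC104, SSP1 and IME2, and GAL10 was the galactose gene lower in all 4. The K4me3-first intervals of the meiosis and galactose lists in both sets, and of the glucose-repressed list in set 2, include 0, so the lower values there rest on the K18ac-first libraries. With K4me3 first in set 2 the glucose-repressed and meiosis lists held 11 and 14 reads in all. A gene with 0 reads there is called lower at almost any Input level, so the counts lower in all 4 favour lists with few reads. With K36me3 second, meiosis genes stood at -1.19 and -1.04 in set 1 and -0.87 and -1.15 in set 2, and glucose-repressed genes at -0.77 and -0.63, and -0.36 and -0.54. After K18ac in set 1, H3 and K79me3 gave -0.61 and -0.62 for meiosis genes, and 0.44 and -0.14 for glucose-repressed genes.

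The members of those lists with the highest mean level were not all depleted. FBP1 (YLR377C), fructose-1,6-bisphosphatase, held 124 CPM with K18ac first in set 1 against 125 CPM in Input, and 176 against 114 in set 2. SUC2 (YIL162W), invertase, held 96.7 against 111 and 123 against 108 CPM. GAL3 (YDR009W) and GAL2 (YLR081W), the galactose sensor and permease, held 21.5 against 80.8 and 16.1 against 67.3 CPM in set 1, but 73.3 against 85.9 and 66.9 against 89.5 in set 2. IME1 (YJR094C), the activator of meiosis, held 69.9 against 88.5 and 88.7 against 129 CPM. Heat shock and stress genes (18) had -0.46 and 0.03, and -0.89 and 0.11, with 1 member, HSP26, lower in all 4 (5.56%, against 2.44% of all genes).

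Subtelomeric genes, those less than 20 kb from an end, made up 24 of the 134 genes lower in all 4 comparisons, 14.4% of the 167 tested, where 2.44% of all genes were. Their summed log2 ratios were -0.08 (-0.22 to 0.06) and -0.31 (-0.38 to -0.24) in set 1 and 0.27 (0.06 to 0.47) and -0.29 (-0.32 to -0.26) in set 2, so the sum with K4me3 first in set 2 went against the count. The median gene of the list stood at -2.25 in that library, so the count leans on genes with few reads there. Most of the 134 lower calls were lost with a minimum of 50 CPM. YPR202W held 10 of the 200 subtelomeric reads of the shallowest library, and YRF1-8, a helicase gene of the Y-prime elements with near-identical copies, held 7.

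To gain depth, reads of each order were summed over the sets, a choice made after seeing the data. Then 194 genes (3.53%) were higher and 216 (3.93%) lower in both orders, and they included 56 of the 61 and 131 of the 134 genes called in all 4 comparisons. Ribosomal protein genes made up 28 of the 194, 20.4% of those tested, and 0 of the 216. Glucose-repressed genes gave 7 of 16 lower (43.8%) and meiosis genes 7 of 28 (25.0%), with 0 higher in either list. Translation factors, proteasome genes, amino acid biosynthesis genes and genes for writers and erasers of the marks gave 3 higher each and 0 lower, and heat shock genes gave 3 lower and 0 higher.

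Across genes the log2 CPM of 5492 genes correlated with a Pearson r of 0.77 between the sets for K18ac followed by K4me3, where their Inputs gave 0.76, and the log2 ratios over Input with 0.64. Between the orders of set 1 the r of log2 CPM was 0.63, beside 0.62 between their Inputs, and that of the ratios was 0.16. The orders of set 2 gave 0.34, their Inputs 0.45 and the ratios 0.08. The K4me3-first libraries of the sets gave 0.27, where their Inputs gave 0.87. Genes are not independent replicates, and the values share depth and mappability.

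Of the 5 nucleosomes with the highest minimum CPM, 2 lay at the start of a gene. The nucleosome with the highest minimum CPM over the 4 libraries was on chromosome XIII, 818773 to 818923, with its centre 21 bp inside DSK2, a ubiquitin receptor gene, and it held 85.7, 80.6, 127 and 78.4 CPM on 4, 15, 2 and 61 reads. The second lay on chromosome VII, 458042 to 458192, with its centre 39 bp before the start codon of CKB1, a regulatory subunit gene of casein kinase 2, and held 4, 18, 2 and 60 reads. The other 3 of the 5 named nucleosomes had centres in overlapping annotated genes, on chromosomes XVI and IV, and are given no gene. Their K4me3-first values rest on 2 to 9 reads each.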

How the data were processed

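The authors deposited raw counts of reads per nucleosome for all 180 libraries, on an atlas of nucleosomes in sacCer3, of which 65032 were counted. Bowtie2 and sacCer3 are named per the submitters' processing notes; the handling of duplicate reads is not given in the sources used here. Library totals ranged from 150 to 2693698 reads. Nucleosomes, each 151 bp, were placed by their centre in 6002 protein-coding genes of RefSeq's R64 assembly, which is sacCer3, with the strand read from the systematic name. Of the gene lengths, 96.4% are multiples of 3, so positions count along coding length. Counts were divided by library totals to give reads per 1000000 (CPM). Ratios to Input add 5 CPM to both values for single genes, and need a mean of at least 20 CPM over the 8 libraries; sums over lists and zones add none. Differences of 1.5-fold were called, with no p, since each group held 1 library. The samples were grouped by strain and antibodies as the labels give them. Intervals are 95% (Wilson for shares, exact for ratios of counts), and they cover counting error only, since reads without molecular identifiers are not independent molecules. Recovery and position were each tested with a two-sided exact permutation test that exchanges the first antibody (recovery) or the second (position) within strata, adjusted over both by Benjamini-Hochberg. Alternatives included other scalings (edgeR 4.0.16 TMM factors and DESeq2 1.42.0 size factors in R 4.3.3), windows, filters and thresholds. Scripts ran in Python 3.11.15 with pandas 2.3.3, numpy 2.4.6 and SciPy 1.17.1 and were tested on simulated data.

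Named genes were the 10 with the highest minimum and the 10 with the lowest maximum of the 4 ratios, the 5 with the highest minimum level per kb, up to 3 of highest mean CPM from each list, and 5 nucleosomes. The libraries compared and the gene lists were chosen with earlier results of these data known.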

Additional observations from a re-analysis of the deposited data

Results flagged for a closer look

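With K4me3 first, 4 of the strains gave a difference between the pair and its own Input of opposite sign to the wild type of their set. Measured as log2 of late over 5-prime reads, pair minus Input was 0.17 in H3K4R, 0.062 in H3K36R, 0.19 in the strain labelled set2 and 0.10 in the strain labelled eaf3, whereas the wild types stood at -0.20 (set 1) and -0.27 (set 2). H3K18R, at -0.11, kept the sign of wild-type H3. The counting interval of H3K4R (-0.26 to 0.60, on 382 zone reads) includes 0, and those of H3K36R (0.02 to 0.10), set2 (0.14 to 0.24) and eaf3 (0.06 to 0.14) do not. Each strain was 1 library, so the difference between strains was not tested. With K18ac first the pair lay on the 5-prime side of its Input in all 7 strains.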

How the results depend on the processing

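The position shift (-1.41) passed the exact permutation test under 4 other zones or filters (-1.70 to -1.41). It did not pass in set 1 alone (-1.64) or in set 2 alone (-1.18), where 9 assignments cannot give a p under 0.111. Against same-mark libraries (-0.61) there are also too few assignments for a pass, whatever the values. Recovery (0.67) passed with H3-first libraries added (0.75) and without the top nucleosomes (0.68). It did not pass against the H3 second step of set 1 (1.62), in set 1 alone (0.99) or in set 2 alone (0.35), where the same limit of 9 assignments holds. Without libraries under 10000 reads (0.64) it did not pass either, but K18ac second in set 2 then drops out and too few assignments are left for a pass. The number of genes higher in all 4 comparisons (61) became 34 with 20 CPM added, 0 at 2-fold, 8 with the counting interval, 93 in the first 500 bp, 11 after centring, 4 with TMM and 3 with DESeq2 factors. The number lower (134) became 86, 46, 0 and 49 under the first 4 of these, 231 with DESeq2 factors and 15 with a minimum of 50 CPM. Within set 1, 341 higher became 45 at 2-fold, 125 with the interval, 590 in 500 bp, 208 centred, 189 with TMM, 124 with DESeq2 factors and 2089 against the H3 Input, and 393 lower became 225, 8 and 231 under the first 3 and 157 at 50 CPM. Within set 2, 406 higher became 26, 77, 637, 102, 43 and 28 under the first 6, and 294 lower became 132, 0 and 135 under the first 3, 487 centred, 487 with TMM, 581 with DESeq2 factors and 63 at 50 CPM. Leaving out each library in turn gave 103 to 206 higher and 164 to 254 lower, since fewer comparisons had to be passed, and summing the sets gave 194 and 216. The galactose list with K4me3 first in set 1, at -0.87 on 10 reads, became 0.0055 in the first 500 bp; the cause was not tested. Of the other list values 136 stayed within their counting interval and 143 moved beyond it, and of the named gene values 109 and 11. Depth limits the K4me3-first libraries most, where 1 read is 21.4 CPM in set 1 and 63.5 in set 2. No paired analysis was possible because each combination of strain and antibodies held 1 library.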

Other observations

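Replacing lysine 36 or removing Set2 or Eaf3 left the orders of the pair nearer to each other along genes than their Inputs, while the pair and the Inputs all lay farther into genes than in the wild types. The orders differed by 0.29 in H3K36R, 0.11 in the strain labelled set2 and 0.44 in the strain labelled eaf3 in log2 of late over 5-prime reads, where their Inputs differed by 1.85, 0.87 and 0.76. In H3K18R the orders differed by 0.19 and the Inputs by 1.99, and in H3K4R by 0.90 and 0.63. Ribosomal protein genes had summed log2 ratios of 0.74 and 0.98 in H3K36R, 0.66 and 0.27 in set2 and 0.48 and 0.50 in eaf3, with K4me3 first named first. All genes stood at -0.03 and 0.38, -0.07 and 0.30, and -0.08 and 0.36, so in set2 with K18ac first these genes did not exceed the rest.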
